A study of Mus musculus with 16 samples.

Results

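Prl7c1, Prl6a1 and Prl8a9 are 3 genes of the placental prolactin family, measured here in mouse embryonic fibroblasts (MEF). They were selected on their signals, which were high in wild-type MEF treated with a proteasome inhibitor and low in the other groups, so their values in the 5 contrasts are given as a description, with no test. Every probe set that names 1 of these genes alone was taken, which gave 1 probe set per gene and 3 of 34945 such probe sets on the array, or 3 of 18193 genes. The rule had no numeric threshold. Of the other family genes with a probe set of their own, Prl7d1 had the largest difference in treated wild-type cells, 1.69 on the log2 scale, against 2.17 for Prl6a1, the lowest of the 3. That order holds with a constant of 16 added to the signal. With the constant 1, Prl7a1 (3.09), Prl4a1 (2.76) and Prl7d1 (2.60) lay above Prl6a1 (2.56).

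RNA was measured on 16 arrays in 4 groups of 4. The cells were WT MEF (CHOP+/+) or CHOP-/- MEF, and each genotype was either left without stress or treated with MG132 at 1 µM for 8 h. MG132 blocks the proteasome, and CHOP is a transcription factor, encoded by Ddit3, of the integrated stress response. Each array stands for 1 culture plate, and the labels do not name embryos, isolations or the construction of the CHOP-/- allele, so p-values measure the spread between plates, and genotype and cell isolation cannot be told apart. For the untreated groups the treatment field reads none while the descriptions name DMSO, the solvent; any effect of the solvent and of MG132 cannot be told apart if the untreated plates had none. RNA came from whole plates, in which fewer cells of a type and less RNA per cell cannot be told apart.

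The prolactin family of the mouse is a cluster of duplicated genes that encode small secreted hormones related to pituitary prolactin. Most of its members are made by trophoblast cells of the placenta, and some by the decidua, the maternal lining of the pregnant uterus. The placental lactogens act through the prolactin receptor and the JAK2-STAT5 pathway, whereas many of the others have no known action at that receptor. Prl7c1 encodes prolactin-like protein O, Prl6a1 encodes prolactin-like protein B, and Prl8a9 belongs to the prolactin-like protein C subgroup.

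The promoters are shown because the 3 genes lie in 1 cluster and had the same order of groups. Each sequence is the 250 bases before the annotated start, read 5′ to 3′ on the strand of the gene, from RefSeq on GRCm38.p6. The windows are chr13:27780805-27781054 on the minus strand for Prl7c1, chr13:27312365-27312614 on the plus strand for Prl6a1 and chr13:27564607-27564856 on the minus strand for Prl8a9. Capitals mark matches to the motifs below and 2 runs of bases that the promoters share.
Prl7c1: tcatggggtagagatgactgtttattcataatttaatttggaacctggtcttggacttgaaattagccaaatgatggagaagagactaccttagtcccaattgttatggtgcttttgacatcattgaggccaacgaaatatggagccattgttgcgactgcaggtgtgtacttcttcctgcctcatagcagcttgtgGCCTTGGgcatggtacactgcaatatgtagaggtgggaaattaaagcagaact
Prl6a1: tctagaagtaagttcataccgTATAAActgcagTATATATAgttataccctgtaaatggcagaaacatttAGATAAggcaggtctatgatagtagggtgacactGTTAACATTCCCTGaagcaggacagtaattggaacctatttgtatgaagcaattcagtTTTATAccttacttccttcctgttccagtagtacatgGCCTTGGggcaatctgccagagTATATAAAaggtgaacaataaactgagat
Prl8a9: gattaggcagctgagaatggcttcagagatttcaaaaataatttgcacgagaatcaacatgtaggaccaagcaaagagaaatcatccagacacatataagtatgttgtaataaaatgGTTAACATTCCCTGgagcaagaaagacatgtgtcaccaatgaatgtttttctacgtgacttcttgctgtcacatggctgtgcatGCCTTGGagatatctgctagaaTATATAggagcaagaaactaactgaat

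The run GTTAACATTCCCTG, 14 bases long, was present in Prl6a1 and Prl8a9, where it began 146 and 133 bases before the start. It was found in 4 of 22 family promoters (Prl5a1, Prl6a1, Prl8a1 and Prl8a9) and in no other of all 27025 promoters of this length, on either strand, a share of 0.0148%. All 3 promoters held GCCTTGG, which began 53 bases before the start in Prl7c1, 51 in Prl6a1 and 49 in Prl8a9. That shorter run was in 4 family promoters and in 5.78% of all promoters. The pattern TATANA, the core of a TATA box, matched 20 of 22 family promoters and 23.4% of all. It matched Prl6a1 at several positions, among them 27 bases before the start, and Prl8a9 at 27 bases before the start, while Prl7c1 had no match.

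Patterns bound by stress-activated factors were searched on both strands in the same windows and were chosen with the signals known. TGANTCA, the AP-1 site, was in 7 of 22 family promoters and in 6.87% of all. TGATGNAA, a site of ATF4 with C/EBP proteins, was in 0 family promoters and in 3.53% of all. GAANNTTC, from the heat shock element, was likewise in 0 family promoters and in 6.78% of all. TGACNNNGC, the antioxidant response element, which can overlap an AP-1 site, was in 1 family promoter and in 10.1% of all. None of these 4 patterns matched the promoters of Prl7c1, Prl6a1 or Prl8a9. AGATAA, bound by a class of zinc finger factors, matched Prl6a1 at 180 bases before the start, 8 of 22 family promoters and 10.3% of all. A match is a run of letters and not a bound site. In pairwise alignment the Prl8a9 promoter was 82.3% identical to that of Prl8a1 and 78.0% to that of Prl8a8. The Prl7c1 promoter was 64% identical to that of Prl7a1. The Prl6a1 promoter was at most 60.3% identical to another of the 22 family promoters searched, that of Prl8a1. Prl8a2, which lies beside Prl6a1, was not among the 22.

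The signals are linear MAS5 intensities in arbitrary units with array medians of 90.1 to 113.4, and arrays of a group correlated at 0.985 to 0.992. Ddit3 (probe set 1417516_at) had a signal of 1017 ± 101 (SD, n = 4) without and 7724 ± 587 with MG132 in the wild type, against 368 ± 24.0 and 396 ± 38.9 in the CHOP-/- cells. Its other probe set, 1443897_at, did not show this order and gave 258 ± 66.9 and 286 ± 48.7 in the wild type and 256 ± 47.4 and 290 ± 41.7 in CHOP-/- cells. As a background reference, the 95th percentile of 81 probe sets for olfactory, vomeronasal and trace amine receptors was taken on each array, and it ran from 46.4 to 90.0. Of 19 fibroblast markers with a probe set, 18 passed that reference on at least 1 array. They included Vim and Col1a2, and the exception was Fap. Of the 17 tested, 5 were higher and 8 lower in untreated CHOP-/- cells, beside 28.6% and 26.9% of all genes: Thy1 was 3.50 and Postn 3.37 higher in CHOP-/- cells on the log2 scale, and Pdgfra was lower (-4.19; limma, adjusted p = 1.3e-17, 6.28e-19 and 1.65e-14). With MG132, 5 rose and 10 fell in the wild type, beside 27.2% and 36.9% of all genes. In CHOP-/- cells 2 of these markers rose and 11 fell, beside 25.7% and 36.8%. In the interaction 2 of the markers were higher and 10 lower in CHOP-/- cells, beside 14.2% and 14.1%. Between treated genotypes 4 markers were higher and 12 lower in CHOP-/- cells, beside 30.7% and 28.1%. Their summed signal went from between 197007 and 229240 to between 170945 and 186774 in the wild type, and from between 193903 and 212514 to between 141688 and 148802 in CHOP-/- cells.

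The signal of Prl7c1 (probe set 1421423_at) was far higher in treated wild-type cells than elsewhere. Without MG132 the 4 wild-type arrays gave 26.0, 62.6, 7.37 and 35.1, and with MG132 they gave 488.1, 495.6, 510.3 and 430.0. The untreated CHOP-/- arrays gave 16.8, 35.2, 64.2 and 29.2, and the treated ones 79.4, 107.9, 59.4 and 90.0. All 4 treated wild-type arrays therefore lay above the other 12, the untreated groups of both genotypes overlapped, and 1 treated CHOP-/- array lay below the highest untreated one. The group means were 32.8 ± 23.0 and 481.0 ± 35.2 (SD, n = 4) in wild-type cells and 36.3 ± 20.1 and 84.2 ± 20.3 in CHOP-/- cells. On the scale log2(signal + 16), which is used for every difference below and understates those of low signals, MG132 minus untreated was 3.48 (SE 0.32) in wild-type and 0.99 (SE 0.32) in CHOP-/- cells. The difference between these responses, CHOP-/- minus wild-type, was -2.49 (SE 0.45).

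Prl6a1 (1420571_at) had the same order of groups with a smaller span. Its signals in wild-type cells were 33.9, 30.3, 50.9 and 35.1 without and 206.8, 188.4, 274.1 and 230.5 with MG132. In CHOP-/- cells they were 46.5, 43.5, 71.8 and 24.8 without and 62.8, 44.4, 110.0 and 52.1 with MG132. The treated wild-type arrays again lay above all others, and both CHOP-/- groups overlapped with each other and with untreated wild-type cells. The means were 37.5 ± 9.10 and 225.0 ± 37.0 (SD, n = 4) in wild-type cells and 46.6 ± 19.3 and 67.3 ± 29.4 in CHOP-/- cells. The log2 difference was 2.17 (SE 0.28) in wild-type and 0.40 (SE 0.28) in CHOP-/- cells, and -1.77 (SE 0.40) between the responses.

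Prl8a9 (1448532_at) was lowest in untreated wild-type cells, at 6.28, 3.66, 1.92 and 7.16. Treated wild-type cells gave 187.1, 182.9, 167.0 and 161.1. The CHOP-/- arrays gave 1.09, 40.8, 37.1 and 19.9 without and 3.48, 23.5, 38.5 and 55.4 with MG132. The 4 treated wild-type signals were close together and above all others, whereas each CHOP-/- group held 1 array near the untreated wild-type level and 3 above it, and these groups overlapped. The means were 4.76 ± 2.41 and 174.5 ± 12.4 (SD, n = 4) in wild-type cells and 24.7 ± 18.2 and 30.2 ± 22.1 in CHOP-/- cells. The log2 difference was 3.20 (SE 0.43) in wild-type and 0.17 (SE 0.43) in CHOP-/- cells, and -3.03 (SE 0.61) between the responses.

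**Figure D1:**
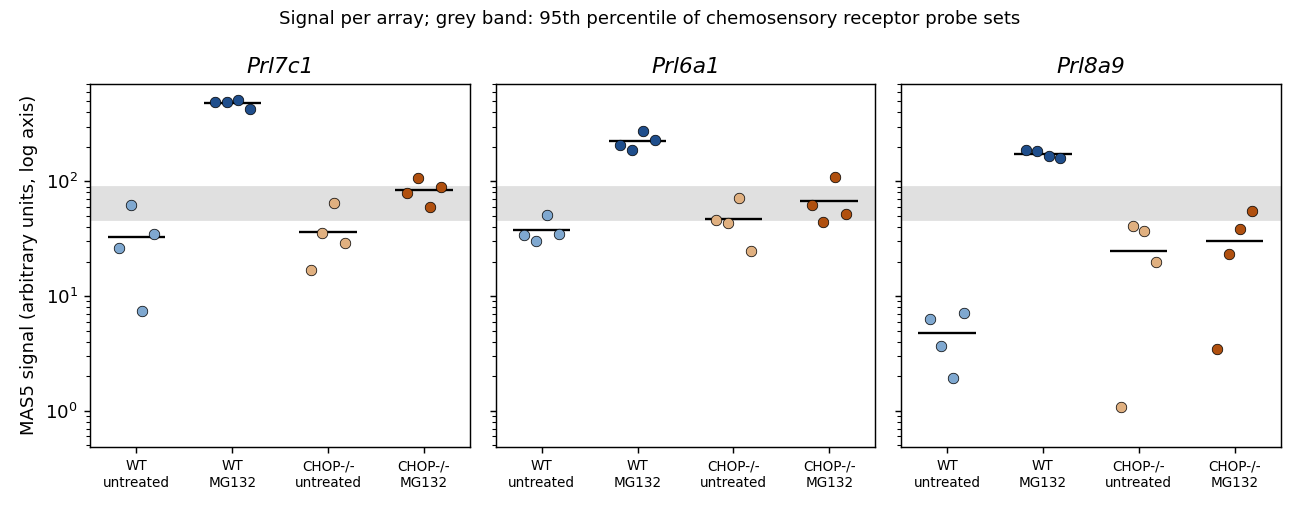
MAS5 signal of Prl7c1, Prl6a1 and Prl8a9 on each of 16 arrays (log axis, arbitrary units), with group means as black lines and the range of the background reference over arrays as a grey band. The 4 treated wild-type arrays lie above all others in each panel, at 161.1 or more, and most other arrays lie in or below the band.

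For these genes, treated wild-type arrays that all lie above the other 12 are what the choice rested on, and nothing is read from it: 7.79% of 11451 genes had the same arrangement. Those 11451 genes are the ones with a signal higher than the array median on 4 or more of the 16 arrays. Prl7c1, Prl6a1 and Prl8a9 passed with 5, 5 and 4 such arrays, 4 of which were the treated wild-type arrays in each case. In the ranking of all 11451 genes by the wild-type response, from the highest, Prl7c1 stood at place 21, Prl8a9 at 28 and Prl6a1 at 87. A higher wild-type group without overlap was found for 23.3% of genes, and 27.2% passed the limma test as higher.

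The comparisons of genotypes gave the same picture from the other side. Untreated CHOP-/- minus wild-type was 0.16 (SE 0.32) for Prl7c1, 0.19 (SE 0.28) for Prl6a1 and 0.84 (SE 0.43) for Prl8a9, and the groups overlapped for each. With MG132 the difference was -2.33, -1.58 and -2.19, with the SEs just given, and all CHOP-/- arrays lay below all wild-type arrays. Such an arrangement, CHOP-/- lower without overlap under MG132, was present in 25.5% of the 11451 genes. These contrasts share groups with the responses above and are not separate evidence.

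Outside treated wild-type cells the signals were in or near the range of the reference probe sets. In treated wild-type cells each of the 3 genes exceeded 100% of the 81 reference probe sets on every array. Averaged over the treated CHOP-/- arrays, Prl7c1 exceeded 96.0% of them, Prl6a1 89.5% and Prl8a9 57.7%. In untreated wild-type cells these shares were 65.7%, 73.5% and 20.7%. Prl7c1 passed the 95th percentile of the reference on 3 of 4 treated CHOP-/- arrays, Prl6a1 on 1 and Prl8a9 on 0. Against all probe sets of the array, in contrast, the treated wild-type signals were moderate, at the percentiles 69.1, 60.6 and 57.6.

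Because the lower groups were near background, the size of each difference depended on the constant added before the logarithm, while its sign did not. With constants of 1, 16 and 64 the wild-type response of Prl7c1 was 4.16, 3.48 and 2.52. That of Prl6a1 was 2.56, 2.17 and 1.5, and that of Prl8a9 was 5.04, 3.20 and 1.79. Prl8a9, with untreated signals under 8 in wild-type cells, moved most, and its SE fell from 0.96 to 0.19. With the constant 1, Prl8a9 had the largest of the 3 log2 differences, and with 16 or 64 Prl7c1 did, so the order of the 3 by size depended on the constant. With the constant 64, the largest of the 3 family genes named above, Prl7d1, gave 0.90, below the 1.5 of Prl6a1. The response in CHOP-/- cells stayed below that in wild-type cells under each constant.

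**Figure D2:**
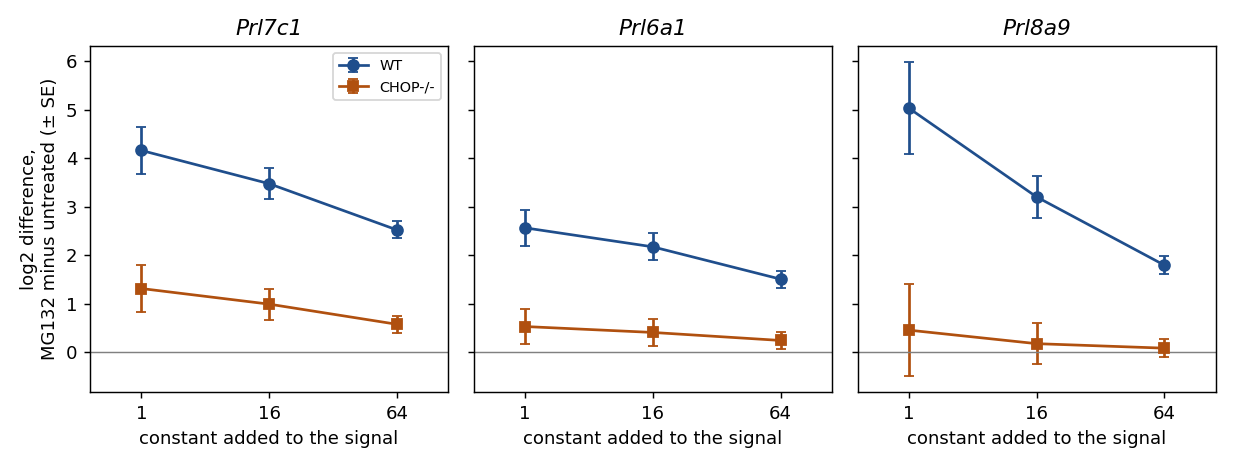
Log2 difference between MG132-treated and untreated cells (± SE) for Prl7c1, Prl6a1 and Prl8a9 against the constant added to the signal (1, 16 or 64), in wild-type and CHOP-/- cells. The wild-type values fall as the constant grows, from 5.04 to 1.79 for Prl8a9, and stay above the CHOP-/- values throughout.

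Over the 16 arrays the 3 genes ran together, mainly through their group means. Pearson's r was 0.87 between Prl7c1 and Prl6a1, 0.90 between Prl7c1 and Prl8a9 and 0.87 between Prl6a1 and Prl8a9. After subtraction of the group means, r was -0.22, 0.36 and 0.10 over the same 16 arrays. The within-group SD on the log2 scale was 0.48 for Prl7c1, 0.36 for Prl6a1 and 0.58 for Prl8a9.

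Of 27 genes in the family list, 18 had a probe set of their own, and the other 15 beside Prl7c1, Prl6a1 and Prl8a9 had low signals. None of these 15 passed the filter on low signals. Without the filter, in a limma fit over all 18193 genes, 3 of 15 rose with MG132 in the wild type, beside 17.4% of all genes. None passed in CHOP-/- cells, where 38.9% of all genes did, and 0 had an unadjusted p under 0.05 there. The median log2 difference of the 15 was 0.64 in wild-type cells (range -0.27 to 1.69, 12 above zero) and 0.02 in CHOP-/- cells (8 above zero), beside -0.01 over all genes in each genotype.

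The 3 genes that rose were Prl7d1, Prl7a1 and Prl4a1. Prl7d1 encodes proliferin-related protein, an inhibitor of blood vessel growth. Its signals in wild-type cells were 3.66, 20.8, 54.6 and 8.89 without and 90.9, 85.5, 111.5 and 83.4 with MG132. CHOP-/- cells gave 27.3, 26.1, 33.2 and 3.31 with MG132. The treated wild-type arrays did not overlap with either group, and the rise was 1.69 (SE 0.39, limma adjusted p = 0.0014). Under MG132 it was lower in CHOP-/- cells (-1.58, adjusted p = 0.0028), but the difference between the responses, -1.47 (SE 0.56), did not pass (adjusted p = 0.084).

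Prl4a1 encodes prolactin-like protein A, which acts on natural killer cells of the uterus. Its signals in wild-type cells were 3.97, 7.44, 6.89 and 2.47 without and 60.6, 26.9, 18.8 and 70.7 with MG132. In CHOP-/- cells they were 5.12, 9.56, 12.2 and 6.07 without and 8.69, 13, 3.85 and 12 with MG132. Only treated wild-type cells stood apart among these 4 groups, although no array passed the reference percentile. The rise was 1.41 (SE 0.29, limma adjusted p = 0.00036), and the difference between the responses was -1.35 (SE 0.41, adjusted p = 0.025). That interaction was lost in 5 of the 16 fits that left out 1 array, namely replicate 4 of untreated and replicates 1 and 4 of treated wild-type cells, and replicate 3 of both CHOP-/- groups, with adjusted p between 0.0077 and 0.058.

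Prl7a1 and Prl7a2 encode prolactin-like proteins E and F, which act on megakaryocytes. Prl7a1 rose by 1.65 (SE 0.38, limma adjusted p = 0.0013) in wild-type cells with probe set 1449529_s_at, from 11.3 ± 15.6 to 62.2 ± 8.5 (SD, n = 4). Its other 2 probe sets gave 0.63 and 0.38 and did not pass (adjusted p = 0.069 and 0.39 over 45037 probe sets). Prl7a2 gave 14.8 ± 9.5 without and 36.2 ± 13.9 with MG132 in the wild type, beside 19.3 ± 10.7 and 8.0 ± 7.4 in CHOP-/- cells. Its difference between the responses was -1.34 (SE 0.45, adjusted p = 0.049), and this call was lost in 11 of 16 fits that left out 1 array (adjusted p 0.026 to 0.113). It held without replicate 2 or 3 of untreated wild-type cells, 4 of untreated CHOP-/- cells, 4 of treated wild-type cells or 3 of treated CHOP-/- cells, and it did not pass with the constants 1 and 64 (adjusted p = 0.060 and 0.051) or with arrays centred on their median (0.065). Under MG132, Prl4a1, Prl7a2 and Prl7d1 were lower in CHOP-/- cells, 3 of 15 beside 17.6% of all genes, and for the interaction 2 of 15 were lower beside 8.14%. Of the 15, 0 passed between the untreated genotypes in limma, where 34.3% of all genes did, and 0 had an unadjusted p under 0.05.

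The other 11 family genes did not pass in any contrast. The 3 with the highest mean signal over all arrays were Prl7b1, Prl2a1 and Prl8a2, the last of which encodes decidual prolactin-related protein. Prl7b1 gave 37.6 ± 19.7 and 81.3 ± 18.8 (SD, n = 4) in wild-type cells without and with MG132, Prl2a1 gave 42.9 ± 13.3 and 43.7 ± 19.6, and Prl8a2 gave 26.5 ± 15.8 and 60.0 ± 11.7. A mean above the reference percentile was reached by 2 of the 15 genes in treated wild-type cells, Prl7d1 and Prl7b1, and by 0 in each of the other groups. Treated wild-type arrays without overlap above the untreated ones were found for 5 of 15 genes, beside 15.9% of all 18193.

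**Figure D3:**
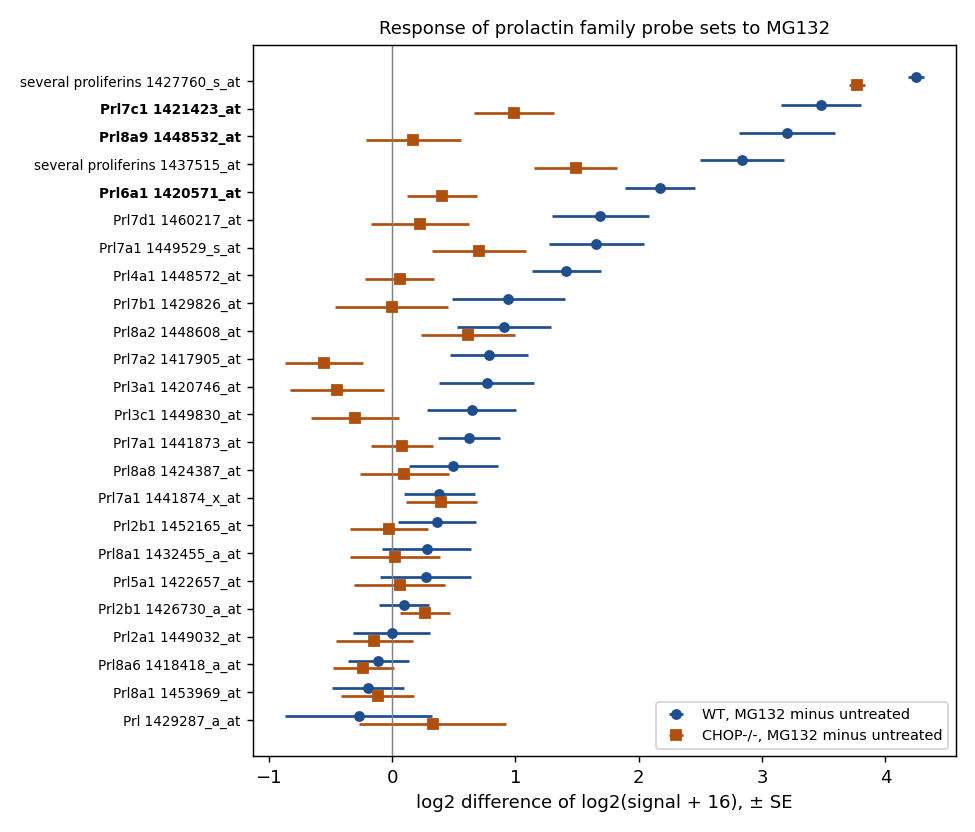
Log2 difference between MG132-treated and untreated cells (± SE, 4 arrays per group) for each of 24 prolactin family probe sets, in wild-type (circles) and CHOP-/- cells (squares). Prl7c1, Prl8a9 and Prl6a1 and both probe sets that list several proliferin genes lie above 2 in wild-type cells, and the other single-gene probe sets lie between -0.27 and 1.69, with the constant 16.

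The proliferins, growth-promoting and angiogenic hormones first found in dividing fibroblasts, had no probe set of their own. Their signal came from 2 probe sets that list several genes, so which gene gave it cannot be told apart, and these were chosen after their values were seen. Probe set 1427760_s_at lists Prl2c2, Prl2c3, Prl2c4 and a predicted gene. Its signals in wild-type cells were 1788, 1827, 1719 and 1575 without and 33117, 30701, 34809 and 33385 with MG132. In CHOP-/- cells they were 1274, 1089, 1107 and 1029 without and 16642, 14652, 15572 and 15048 with MG132. All 4 groups were separate, in contrast to Prl7c1, Prl6a1 and Prl8a9, which lay near background without MG132.

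In a limma fit over 45037 probe sets, that signal rose by 4.24 (SE 0.06, adjusted p = 2.25e-20) in wild-type and by 3.77 (SE 0.06, adjusted p = 2.26e-19) in CHOP-/- cells, where 14.4% and 12.1% of all probe sets rose. The interaction was -0.48 (SE 0.09, adjusted p = 0.00137), and 5.94% of all probe sets were lower. The CHOP-/- cells were lower both without MG132 (-0.61) and with it (-1.09), with adjusted p = 2.35e-07 and 3.67e-11, beside 12.5% and 15.2% of all probe sets. The other probe set, 1437515_at, which also lists Prl2c5, averaged 14.3 and 197.8 in wild-type cells and 10.6 and 58.2 in CHOP-/- cells, without and with MG132. It rose by 2.84 (SE 0.34, adjusted p = 9.2e-07) and 1.49 (SE 0.34, adjusted p = 0.0017), and its interaction of -1.35 (SE 0.48) did not pass (adjusted p = 0.084).

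**Figure D4:**
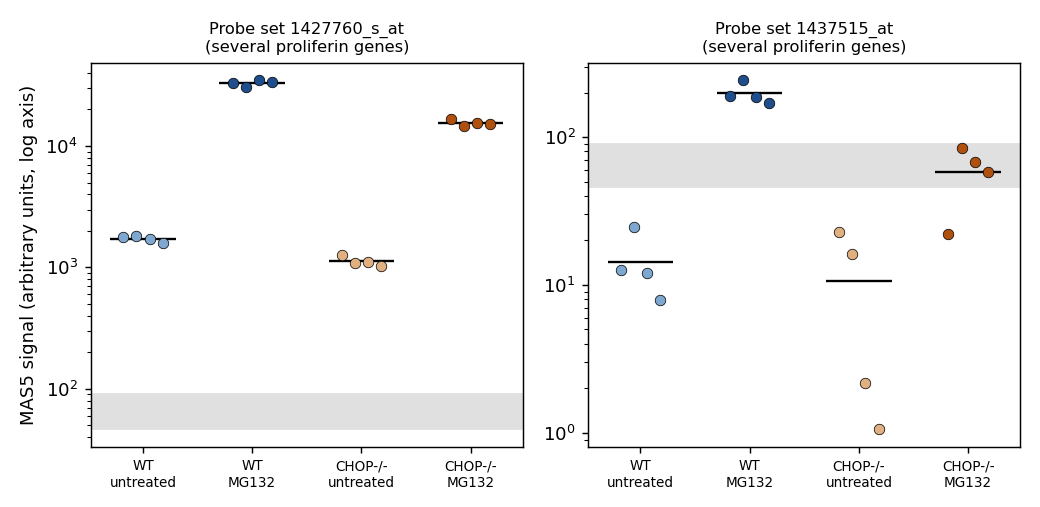
MAS5 signal on each of 16 arrays (log axes of different range, arbitrary units) of the probe sets that list several proliferin genes, with group means as black lines and the background reference as a grey band. For 1427760_s_at all 16 arrays lie above the band and the treated arrays of both genotypes lie at 14652 or more, and for 1437515_at the 4 treated wild-type arrays lie above the rest.

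In RefSeq gene order the family cluster holds 23 listed family genes among 31 from Prl to Prl5a1, and Prl6a1, Prl8a9 and Prl7c1 are not next to each other. Among the 23, Prl6a1 is number 8, Prl8a9 number 13 and Prl7c1 number 19. The nearest family genes on either side gave different wild-type responses. Beside Prl7c1, Prl7d1 before it rose by 1.69, and Prl2a1 after it gave -0.00 (SE 0.31). Beside Prl6a1, Prl3a1 gave 0.77 (SE 0.38, limma adjusted p = 0.128) and Prl8a2 gave 0.91 (SE 0.38, adjusted p = 0.0623). Beside Prl8a9, Prl8a8 gave 0.50 (SE 0.36) and Prl8a1 gave 0.28 (SE 0.37). Prl7a1 and Prl7a2 lie before Prl7d1, and Prl4a1 lies after Prl2a1, with Prl2c1, which had no probe set of its own, between them. Among the 22 family promoters searched, that of Prl8a1, which holds the run GTTAACATTCCCTG, and that of Prl8a8 were most like that of Prl8a9. Neither gene rose (limma adjusted p = 0.627 and 0.331). Each of the 3 probe sets is annotated to 1 gene, and whether RNA of a related family gene adds to its signal was not tested.

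**Figure D5:**
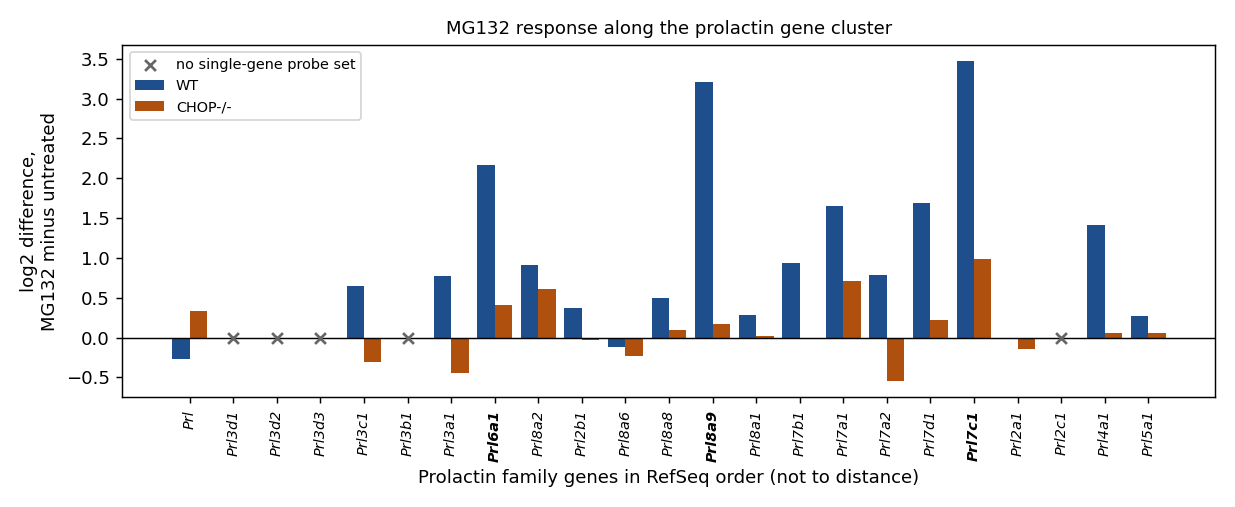
Log2 difference between MG132-treated and untreated cells along 23 prolactin family genes in RefSeq order (equal spacing, not to distance), in wild-type and CHOP-/- cells, where a cross marks a gene with no probe set of its own. With the constant 16 shown, the bars of Prl6a1, Prl8a9 and Prl7c1 (2.17, 3.20 and 3.48) are separated by genes with smaller values, and with the constant 1 that of Prl6a1 is exceeded by Prl7a1, Prl4a1 and Prl7d1.

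Beyond the cluster, unnamed clones and predicted genes were skipped. The nearest other genes with a probe set were Hdgfl1 and Nrsn1 on the side of Prl, and Sox4 and Cdkal1 on the side of Prl5a1. Sox4, a developmental transcription factor, rose in both genotypes, by 1.91 in wild-type and 0.67 in CHOP-/- cells, with an interaction of -1.24 (limma adjusted p = 2e-17, 2.08e-10 and 1.42e-10). Hdgfl1 gave 0.44 (adjusted p = 0.44) and Cdkal1 -0.03 (adjusted p = 0.76) in wild-type cells. Nrsn1 did not pass the filter and gave -0.48.

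The genes with the most similar pattern over the 16 arrays were found by Pearson's r on the log2 scale among tested genes outside the family. For Prl7c1 these were Rab21 (r = 0.961), an endosomal GTPase, Fam210a (0.959), Prg4 (0.958), which encodes lubricin, Tnfrsf10b (0.953), which encodes a death receptor for TRAIL, and Dhx34 (0.952). For Prl6a1 they were Trp53inp1 (0.951), a p53-induced gene, Krt14 (0.947), a keratin, Lmbrd1 (0.937), Rfc4 (0.933) and Utp6 (0.932). For Prl8a9 they were Colec10 (0.915), a collectin, Loxl4 (0.911), a lysyl oxidase, Fam110c (0.901), Dppa5a (0.900) and the chemokine gene Ccl20 (0.896). These r values describe 16 arrays that fall into 4 groups, so each rests mainly on the treated wild-type arrays. Prg4, for example, averaged 27.8 and 463.5 in wild-type cells and 32.2 and 67.8 in CHOP-/- cells. With the constant 64, 4 of the 5 genes were again among the 5 for Prl7c1, 2 for Prl6a1 and 5 for Prl8a9.

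Genes of prolactin receptor signalling were for the most part measured well above background, and the receptor gene Prlr itself was not analysed here. Of 27 tested genes of this list, 5 rose and 13 fell in wild-type cells with MG132, beside 27.2% and 36.9% of all genes, and the median was -0.22 beside -0.07. In CHOP-/- cells 4 rose and 12 fell, beside 25.7% and 36.8%, with a median of -0.29. In the interaction 7 were higher and 5 lower in CHOP-/- cells, beside 14.2% and 14.1%. The split of calls depended on the scaling. Centring each array on its median raised every wild-type response by 0.20 and every CHOP-/- response by 0.14, which moved the share of higher genes among all calls from 42.4% to 61.6% and from 41.2% to 55.8%, and in the interaction from 50.1% to 38.6%. With that centring 9 genes of the signalling list rose and 9 fell in the wild type, beside 40% and 25% of all genes. In CHOP-/- cells 7 rose and 12 fell, beside 34.9% and 27.7%. In the interaction 4 were higher and 5 lower, beside 11% and 17.4%.

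Socs2, a feedback inhibitor and target of STAT5, averaged 267 without and 693 with MG132 in the wild type, beside 689 and 517 in CHOP-/- cells. It rose by 1.32 in wild-type cells and fell in CHOP-/- cells (-0.41), with an interaction of -1.73 (limma adjusted p = 5.73e-11, 0.000434 and 4.38e-09). Cish, another STAT5 target, did not pass in either genotype (0.38 and 0.32, adjusted p = 0.065 and 0.12), but it passed as higher in both with arrays centred on their median (0.58 and 0.47). The adaptor genes Grb2 and Gab2 rose in both genotypes, Grb2 by 0.55 and 0.60 and Gab2 by 0.83 and 1.26. Pias3, an inhibitor of STAT factors, fell in both (-1.41 and -0.80), as did the feedback inhibitor Socs3 (-1.06 and -0.72). Socs1 fell in wild-type cells (-1.95, adjusted p = 2.66e-05) and gave -0.64 in CHOP-/- cells (adjusted p = 0.096).

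Among the kinase and STAT genes, Jak2 gave -0.05 in wild-type cells (limma adjusted p = 0.71) and fell in CHOP-/- cells (-0.52, adjusted p = 0.000256). Stat5a was lower in CHOP-/- than in wild-type cells both without and with MG132 (-1.58 and -1.70, adjusted p = 3.34e-11 and 9.94e-12), and so was Stat5b (-0.66 and -0.78). Ghr, the receptor of growth hormone, fell in both genotypes with MG132 (-0.37 and -1.13), although the first call was lost with arrays centred on their median (-0.17, adjusted p = 0.0913). Igf1, a growth factor downstream of it, averaged 54.6 and 52.5 in wild-type cells, and fell in CHOP-/- cells from 921 to 115 (-2.87, adjusted p = 6.6e-09). Comparing genotypes, 7 genes of this list were higher and 9 lower in untreated CHOP-/- cells, beside 28.6% and 26.9%, and 12 higher and 9 lower with MG132, beside 30.7% and 28.1%.

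Since the family marks the placenta, other genes of trophoblast cells were set beside it. Of 59 such genes with a probe set, 20 did not pass the reference percentile on any array. Among them were Tpbpa and Tpbpb, which define the spongiotrophoblast, and the trophoblast regulators Elf5 and Tfap2c. Tpbpa averaged 13.1 and 26.3 in wild-type cells, without and with MG132, and Elf5 20.3 and 48.4. Cdx2, a regulator of trophoblast stem cells, averaged between 45.2 and 70.8 in the 4 groups, and Ascl2 between 8.39 and 41.4. Other trophoblast regulators, which many cell types make, were well above the reference in every group, such as Tead4, at 313 to 655, and Gata2, at 435 to 527. Of 21 regulators with a probe set, 14 were tested and 3 did not pass the reference percentile on any array. Their summed signal ran from 25895 to 27924 without and from 23805 to 26344 with MG132 in the wild type, and from 17884 to 20110 and 19174 to 21415 in CHOP-/- cells.

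Of the 23 trophoblast genes tested, 6 rose and 2 fell in wild-type cells with MG132, beside 27.2% and 36.9% of all genes, and 5 rose and 3 fell in CHOP-/- cells, beside 25.7% and 36.8%. In the interaction 0 were higher and 7 lower in CHOP-/- cells, beside 14.2% and 14.1%. Between genotypes, 8 were higher and 5 lower in untreated CHOP-/- cells, beside 28.6% and 26.9%, and 4 higher and 8 lower with MG132, beside 30.7% and 28.1%. With arrays centred on their median 13 rose and 2 fell in the wild type, beside 40% and 25% of all genes with that centring. Calls gained by the centring included the trophoblast regulators Eomes, Gata3 and Tfap2a. Their wild-type responses were 0.67, 0.25 and 0.47 as first scaled, where none of them was called. Centred, they were 0.88, 0.45 and 0.68 (limma adjusted p = 0.039, 0.0013 and 0.0085). Quantile normalisation, which gives all arrays the same distribution of signals, was another scaling. With it 8 trophoblast genes rose and 2 fell in the wild type, beside 28.3% and 35.9% of all genes. Gata3 and Tfap2a were gained there (0.28 and 0.56, limma adjusted p = 0.041 and 0.033), and Eomes was not. By contrast with the 3 prolactin genes, several genes were well above background in every group, such as Ets2, a transcription factor that rose by 1.14 and 0.76. Id2, an inhibitor of differentiation, fell in both genotypes (-1.25 and -1.83).

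The largest rise in this list was that of Serpinb9g, a serine protease inhibitor of a multigene family. It averaged 6.53 ± 3.79 and 6975 ± 416 (SD, n = 4) in wild-type cells and 15.8 and 724 in CHOP-/- cells, without and with MG132. The log2 rise was 8.29 in wild-type and 4.55 in CHOP-/- cells, with an interaction of -3.74 (limma adjusted p = 2.93e-19, 5.47e-15 and 5.94e-10). Its relative Serpinb9b rose by 2.74 and 1.12 (interaction -1.61, adjusted p = 1.22e-07). Flt1, a receptor of VEGF that placental trophoblast also makes, rose by 1.40 in wild-type cells and gave -0.38 in CHOP-/- cells (adjusted p = 0.077), with an interaction of -1.78 (adjusted p = 3.6e-05). The summed signal of the 38 trophoblast products ran from 1439 to 2028 without and from 11021 to 12345 with MG132 in the wild type, and from 2067 to 2585 and 3487 to 3934 in CHOP-/- cells. This sum, most of which was Serpinb9g and Serpinb9b in treated wild-type cells, moved with the 3 prolactin genes, and its part in their signal was not tested.

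Markers of other cells were read in the same way. Of 12 decidual genes with a probe set, 8 were tested, and 0 rose and 3 fell in wild-type cells with MG132, beside 27.2% and 36.9% of all genes, while 0 rose and 4 fell in CHOP-/- cells, beside 25.7% and 36.8%. The summed signal of that list was 5180 to 5765 without and 4113 to 4417 with MG132 in the wild type and 6104 to 6772 and 3647 to 4071 in CHOP-/- cells, and Igfbp1 averaged 12.2 and 3.06 in the wild type. Of 21 yolk sac and endoderm genes, Afp, which encodes alpha-fetoprotein, averaged 4.72 and 240 in wild-type cells and 123 and 404 in CHOP-/- cells. It rose in both genotypes, by 3.64 and 1.61 (limma adjusted p = 1.98e-12 and 4.04e-07). As for Prl7c1, Prl6a1 and Prl8a9, the log2 difference was smaller in CHOP-/- cells. Unlike those genes, Afp was higher in CHOP-/- than in wild-type cells under MG132 (0.72, limma adjusted p = 0.00329). Its mean signal in CHOP-/- cells was above that of the wild type without MG132 also. Apoa1 and Foxa2 of this list passed the reference percentile on 0 arrays. Of 9 tested yolk sac and endoderm genes, 2 rose and 2 fell in the wild type, beside 27.2% and 36.9% of all genes. In CHOP-/- cells 2 rose and 4 fell, beside 25.7% and 36.8%. The summed signal of the 21 genes was 46378 to 52814 without and 40416 to 41651 with MG132 in the wild type. In CHOP-/- cells that sum was 54030 to 58839 and 38466 to 41518.

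Of 12 epithelial genes 6 were tested, of which 3 rose and 1 fell in the wild type and 2 rose and 1 fell in CHOP-/- cells. Beside these counts and those of the lists below, 27.2% of all genes rose and 36.9% fell in the wild type. In CHOP-/- cells the shares were 25.7% and 36.8%. Krt14, a keratin of basal epithelium, averaged 10.1 and 471 in wild-type cells and 10.4 and 63.6 in CHOP-/- cells, and it rose by 4.22 and 1.55 with an interaction of -2.66 (limma adjusted p = 5.21e-10, 0.000315 and 0.000211). Epcam did not pass in either genotype (-0.02 and 0.25), and Esrp1 passed the reference percentile on 0 arrays. Of 8 endothelial genes, 5 did not pass that percentile on any array, Pecam1, Tie1 and Vwf among them. Of 2 tested endothelial genes 0 rose and 1 fell in the wild type, and 1 rose and 0 fell in CHOP-/- cells. Of 8 leukocyte genes 2 passed the percentile on 0 arrays, Ptprc and Itgam, and 3 were tested. In each genotype 2 of these 3 rose, Cd68 (0.63) and Csf1r (0.47) in the wild type and Csf1r (0.52) and Cd14 (0.71) in CHOP-/- cells. The summed leukocyte signal was between 778 and 915 without and between 903 and 1160 with MG132 in the wild type, and between 1492 and 1757 and between 2286 and 2462 in CHOP-/- cells. Krt14, Afp, Cd68 and Csf1r moved with MG132 beside the 3 prolactin genes, and their part in the result was not tested.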

How the data were processed

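Total RNA was labelled with a 3′ IVT kit and hybridised to an Affymetrix mouse array, per the labels' protocols. The authors deposited linear MAS5 signal intensities, per the submitters' processing notes, with no log transformation or detection call. MAS5 settings are not stated in these sources. Each array had a mean of 1000.01 after trimming 2% at each end. Of 45101 probe sets, 64 were controls, 9160 named no gene, 932 several and 34945 one gene. Of those 34945, 34741 matched the RefSeq gene table by gene identifier. No detection calls were used here, so the number of arrays and the background limit the precision.

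Where several probe sets named 1 gene alone, the brightest on average stood for it. Linear models with 1 coefficient per group were fitted over all 16 arrays on log2(signal + 16) with limma 3.58.1 in R 4.3.3 (empirical Bayes with trend), two-sided, in 5 contrasts. Benjamini-Hochberg adjustment ran over 11451 genes, or over 18193 genes or 45037 probe sets without the filter, at 0.05. "Rose", "fell", "higher" and "lower" of a tested gene mean an adjusted p under that threshold. Promoters were searched and aligned with Biopython 1.88.

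The 3 genes, the gene lists, the motifs and the alternatives were chosen with earlier results of these data known. Named beside them were other family genes that passed in any contrast or had the 3 highest mean signals, up to 4 genes per list and contrast with the smallest adjusted p, and defining genes that did not pass. The 5 genes most alike, the 2 nearest genes on each side of the cluster, and Ddit3 were added. Unnamed clones and predicted genes were skipped among the genes most alike and the nearest genes. The proliferin probe sets were chosen after their values were seen. Alternatives were other constants, scalings, filters, probe set choices, a replicate block and each array left out.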

Additional observations from a re-analysis of the deposited data

Results flagged for a closer look

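Among 96 groups of 4 arrays (24 family probe sets), 9 held 1 array far from the other 3 by Dixon's ratio of the gap to the group's range on the log2 scale, and chance gives about 1 in 20 such groups. None of the 9 belonged to Prl7c1, Prl6a1 or Prl8a9, and each array that stood apart had a signal of 34.7 or less.

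For Prl7a1, replicate 3 of treated CHOP-/- cells was high with 1441873_at (share 0.881, signal 21.7 beside 2.61 for the nearest array). Replicate 2 of untreated wild-type cells was high with 1441874_x_at (0.916, 13.1 beside 1.44). With 1449529_s_at, replicate 3 of untreated wild-type cells was high (0.864, 34.7 beside 4.89) and replicate 4 of treated CHOP-/- cells was low (0.847, 3.19 beside 35.3). Prl7b1 was low in replicate 3 of untreated wild-type cells (0.863, 8.58 beside 42.1), and Prl7d1 in replicate 4 of treated CHOP-/- cells (0.833, 3.31 beside 26.1). Probe set 1453969_at of Prl8a1 was high in replicate 1 of untreated wild-type cells (0.973), replicate 2 of untreated CHOP-/- cells (0.957) and replicate 1 of treated CHOP-/- cells (0.996).

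The response to MG132 differed between genotypes by limma's interaction term for the proliferin probe set 1427760_s_at (-0.48, adjusted p = 0.00137) and for Prl4a1 (-1.35, adjusted p = 0.025). It also differed for Prl7a2 (-1.34, adjusted p = 0.049), a call lost in 11 of 16 fits without 1 array. Outside the family it differed, among others, for Sox4 (-1.24), Socs2 (-1.73), Serpinb9g (-3.74), Serpinb9b (-1.61), Flt1 (-1.78) and Krt14 (-2.66). The adjusted p for these genes are given above. Of the 17 fibroblast markers tested, 2 were higher and 10 lower in this term. Over all 11451 genes 14.2% were higher and 14.1% lower.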

How the results depend on the processing

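With the constant 1, the wild-type response was 4.16 for Prl7c1, 2.56 for Prl6a1 and 5.04 for Prl8a9, and Prl8a9 gave -4.59 for the interaction, 1.61 between untreated and -2.98 between treated genotypes. With the constant 64 the wild-type responses were 2.52, 1.5 and 1.79, the interactions -1.95, -1.27 and -1.71, and the treated genotypes differed by -1.15 for Prl6a1 and -1.37 for Prl8a9. Larger constants shrink differences of low signals by construction. The level of the 3 genes in treated wild-type cells was 100% against the receptor probe sets and 69.1%, 60.6% and 57.6% against all probe sets. For Prl6a1, 2 of the 5 most similar genes were kept with the constant 64. Centring arrays on their median gave 15 trophoblast genes in wild-type cells (13 higher, 2 lower) in place of 8, since it raised every wild-type response by 0.20. Of all genes, 40% were higher and 25% lower with that centring. With quantile normalisation 8 trophoblast genes were higher and 2 lower in wild-type cells, beside 28.3% and 35.9% of all genes. Without the filter, 3 of the 15 other family genes passed in wild-type cells, 2 in the interaction and 3 between treated genotypes, in place of 0, since none passed the filter. Over all probe sets, an alternative added after seeing the data, 5, 2, 2, 1 and 5 family probe sets passed in the wild-type response, CHOP-/- response, interaction, untreated and treated genotypes. The counts leave out the 3 genes. The proliferin probe sets gave both calls in the CHOP-/- response and the 1 between untreated genotypes. Of all probe sets, 14.4% and 12.1% were higher in the 2 responses. In the other 3 contrasts 5.94%, 12.5% and 15.2% were lower.

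With each array left out, the wild-type response ran from 3.17 to 3.75 for Prl7c1, 2.08 to 2.28 for Prl6a1 and 3.14 to 3.26 for Prl8a9, and the CHOP-/- response of Prl8a9 from -0.20 to 0.54. Deviations from the group mean on arrays with the same replicate number correlated at -0.07 to 0.16. Between the untreated genotypes all of these correlations were positive, at 0.08 to 0.16. They were all positive between treated and untreated CHOP-/- cells also, at 0.02 to 0.14. With the replicate block the wild-type responses were 3.48, 2.17 and 3.20, as without it. Their SEs were 0.32, 0.24 and 0.42 with the block, beside 0.32, 0.28 and 0.43 without it. Signalling genes passed 19 times in place of 18, and no count moved by over 1.5 times. Signals near background limit the untreated and CHOP-/- groups, where an order of arrays or genes describes these signals only.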
